A study of Homo sapiens with 6 samples.

Results

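The 10 genes described here encode brakes on the RAS-ERK pathway: the dual-specificity phosphatases DUSP1, DUSP2, DUSP4, DUSP5 and DUSP6, the Sprouty proteins SPRY1, SPRY2 and SPRY4, and the Sprouty-related SPRED1 and SPRED2. They were chosen by name, with earlier results of these data known. Every probe set annotated to a single gene of the 10 was taken, which gave 21 of the 54613 probe sets on the array that are not controls. DUSP2, DUSP5, SPRY2 and SPRY4 (4 genes) had 1 probe set each, SPRY1 had 2, and the other 5 genes had 3 each. Probe sets of 1 gene share that gene's transcript and are not independent of each other.

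The cells were MOLM-14, a long-established line from a human acute myeloid leukaemia with an MLL-AF9 rearrangement, and they were kept for 24 h either in the vehicle DMSO (3 samples) or in 10 nM CA (3 samples). CA is cortistatin A, an inhibitor of the Mediator kinases CDK8 and CDK19, and the question addressed is how their inhibition alters transcript levels. The samples were replicate platings of 1 line that each went on 1 Affymetrix U133 Plus 2.0 array, so the p-values measure the spread between these wells, which may be technical. In such bulk RNA, fewer cells that carry a transcript and less of it per cell cannot be told apart.

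ERK is switched on when growth factor receptors load RAS, which activates RAF, MEK and then ERK. Many genes that active ERK induces encode its own inhibitors, so their transcripts are widely read as a gauge of pathway output. DUSP6 in the cytoplasm and DUSP5 in the nucleus remove phosphate mainly from ERK, while the nuclear DUSP1, DUSP2 and DUSP4 also act on other MAP kinases. Sprouty proteins act further up, between receptor and RAF, and SPRED proteins recruit neurofibromin to switch RAS off. MOLM-14 cells carry an internal tandem duplication of the receptor FLT3, which feeds this pathway.

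After CA, the transcripts of both ERK-directed phosphatases among the members rose, DUSP6 by 1.61-fold and DUSP5 by 1.46-fold. The 3 phosphatases of broader action, the 3 Sprouty genes and the 2 SPRED genes did not pass the test. In all, 4 of the 21 member probe sets were called higher (all 3 of DUSP6 and that of DUSP5) and 0 lower by limma, where 3.0% of all probe sets were called higher and 2.01% lower. A call is an adjusted p under 0.05 (Benjamini-Hochberg over the 54613 probe sets). At an unadjusted p under 0.05, 6 member probe sets were higher and 1 lower, against 4967 and 5124 of all 54613. With each gene taken by its probe set of highest mean signal, 2 of the 10 genes were called higher and 0 lower, against 4.31% and 2.55% of all 19775 genes. At an unadjusted p under 0.05 these were 3 and 1, against 2375 and 1992 of all 19775 genes. The median change of the 10 genes was 0.10 on the log2 scale, against -0.0034 over all genes.

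The upstream sequences of DUSP6, which rose, and of DUSP1, which did not pass the test, are shown as those of 1 called and 1 uncalled gene for related phosphatases. The difference between their changes was not tested. Each is the stretch of 250 bases before the RefSeq transcription start of assembly GRCh38.p14, read 5′ to 3′ on the gene's strand. DUSP6 lies on the minus strand at chr12:89352502-89352751 and DUSP1 on the minus strand at chr5:172771196-172771445. Capitals mark, on either strand, the ETS core GGAA, the cyclic AMP response element TGACGTCA, the E-box CACGTG and the TATA box TATAAA.
DUSP6: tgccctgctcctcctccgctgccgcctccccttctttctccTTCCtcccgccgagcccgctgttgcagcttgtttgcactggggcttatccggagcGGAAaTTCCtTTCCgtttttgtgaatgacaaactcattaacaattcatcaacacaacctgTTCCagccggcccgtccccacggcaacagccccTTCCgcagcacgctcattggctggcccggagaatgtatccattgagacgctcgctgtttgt
DUSP1: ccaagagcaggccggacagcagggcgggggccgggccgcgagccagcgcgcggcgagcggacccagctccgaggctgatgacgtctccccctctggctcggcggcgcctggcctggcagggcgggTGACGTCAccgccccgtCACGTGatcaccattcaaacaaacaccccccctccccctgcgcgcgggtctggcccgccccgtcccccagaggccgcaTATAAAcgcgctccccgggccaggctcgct

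The DUSP6 window held 6 ETS cores, the first 209 and the last 61 bases before the start, and none of the other 3 motifs. ETS factors are among the classical nuclear substrates of ERK. The motif is short, and 92.7% of 34943 RefSeq windows of this length held at least 1, with a median of 3. The DUSP1 window held 0 ETS cores, a cyclic AMP response element 125 bases before the start, an E-box at 108 and a TATA box at 30. The other 10 member windows, all of uncalled genes (6 genes), held 2 to 5 ETS cores, so the core was not found only in DUSP6. Only the DUSP1 window held 0 among those of the members, and that of the uncalled phosphatase DUSP2 held 4. Of all windows 1.63% held that response element, 6.32% the E-box and 10.8% the TATA box. The ETS core lies inside the longer ETS motif CCGGAAG, which 8.48% of windows held and neither of these did. The AP-1 motif TGANTCA was in neither window and in 6.59% of all. The GC box GGGCGG was found 4 times in the DUSP1 window and 0 times in that of DUSP6, where 42.5% of windows held it. Windows were matched for 8 of the 10 genes (12 windows, since some genes have several starts), and those of DUSP4 and DUSP5 were not used. Among the 12, the cyclic AMP response element was found only in that of DUSP1. These matches are descriptions of letters in a window, and no binding was measured.

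DUSP6 encodes the cytoplasmic phosphatase that binds ERK most selectively, and its transcript is among the most used readouts of ERK activity. Its brightest probe set, 208891_at, read 10.26, 10.35 and 10.23 in DMSO replicates 1 to 3 and 10.93, 11.01 and 10.96 in CA replicates 1 to 3 (RMA signal, log2). All CA arrays lay above all DMSO arrays, with 0.58 log2 units between the nearest arrays of the groups. The mean went from 10.28 ± 0.06 to 10.97 ± 0.04 (SD, n = 3), a change of 0.69 (SE 0.05, 95% confidence interval 0.56 to 0.82, limma adjusted p = 9.21e-04).

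The other DUSP6 probe sets gave nearly the same change at somewhat lower signal. Probe set 208892_s_at read 10.07, 10.22 and 10.12 in DMSO and 10.76, 10.90 and 10.85 in CA, a change of 0.70 (0.55 to 0.85, adjusted p = 0.00157). Probe set 208893_s_at read 9.43, 9.40 and 9.52 in DMSO and 10.14, 10.17 and 10.09 in CA, a change of 0.68 (0.56 to 0.81, adjusted p = 9.21e-04). In fold terms the 3 probe sets spanned 1.6 to 1.63. The change of 208891_at ranked 147th from the top among the 19775 genes, and 146th among the 853 called higher.

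DUSP5, the nuclear phosphatase directed at ERK, was measured by 209457_at alone. It read 7.36, 7.32 and 7.41 in DMSO and 8.0, 7.86 and 7.88 in CA. The groups again did not overlap and lay 0.44 log2 units apart at their nearest. The change was 0.55 (SE 0.06, interval 0.41 to 0.69, adjusted p = 0.00330), from 7.36 ± 0.05 to 7.91 ± 0.08 (SD, n = 3). Its interval overlapped that of DUSP6, and the difference between the changes of these genes was not tested. DUSP5 and DUSP6 were called higher under all alternative settings tried, including with any 1 array left out, where DUSP6 ranged from 0.66 to 0.74 and DUSP5 from 0.51 to 0.58.

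**Figure D1:**
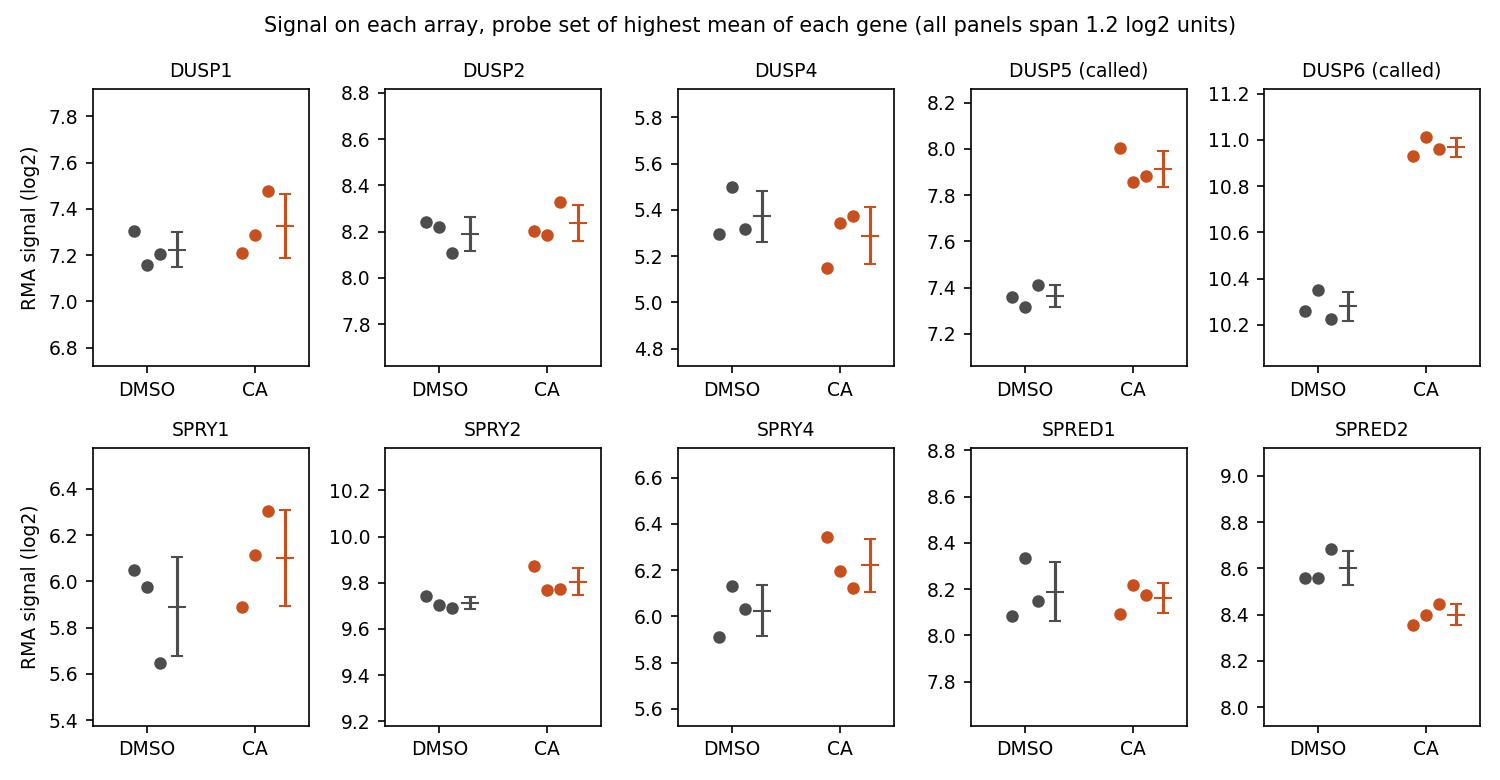
RMA signal (log2) of each of the 10 genes on the 3 DMSO (grey) and 3 CA (orange) arrays, by the probe set of highest mean. Points are arrays, the bar beside them is the mean ± SD (n = 3), and every panel spans 1.2 log2 units. In the DUSP5 and DUSP6 panels the groups lie 0.44 and 0.58 apart, while in most other panels they overlap.

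The phosphatases that also act on the stress kinases p38 and JNK gave small values. DUSP1, an immediate early gene induced by stress and glucocorticoids, read 7.31, 7.16 and 7.21 in DMSO and 7.21, 7.29 and 7.48 in CA on 201041_s_at. The arrays of the groups were interleaved, and the change was 0.10 (-0.09 to 0.29, adjusted p = 0.578). Its dimmer probe sets 226578_s_at and 201044_x_at gave -0.01 (-0.13 to 0.12) and -0.07 (-0.23 to 0.08).

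DUSP2, a nuclear phosphatase of activated blood cells, read 8.24, 8.22 and 8.11 in DMSO and 8.20, 8.18 and 8.33 in CA. This was a change of 0.05 (-0.10 to 0.20, adjusted p = 0.766), with overlapping groups. DUSP4, the nuclear relative of DUSP1, had 3 dim probe sets, all below the arrays' median signal of 5.61. They gave -0.08 (204015_s_at, -0.28 to 0.11), -0.12 (226034_at, -0.47 to 0.23) and -0.09 (204014_at, -0.38 to 0.20), with adjusted p of 0.670 to 0.768. In all 3 the groups overlapped.

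Values of the 3 Sprouty genes lay above 0 without passing the test. SPRY2, the brightest of their probe sets at 204011_at, read 9.74, 9.70 and 9.69 in DMSO and 9.87, 9.77 and 9.77 in CA. The groups did not overlap, but the nearest arrays were 0.03 apart, and the change was 0.09 (-0.03 to 0.21, adjusted p = 0.400). SPRY4, on 221489_s_at, read 5.91, 6.13 and 6.03 in DMSO and 6.34, 6.20 and 6.12 in CA. Here CA replicate 3 lay just under DMSO replicate 2, and the change was 0.20 (0.00 to 0.39, adjusted p = 0.263).

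SPRY1 was read by 2 probe sets near the arrays' median signal. On 230212_at it read 6.05, 5.98 and 5.65 in DMSO and 5.89, 6.12 and 6.30 in CA, a change of 0.21 (-0.11 to 0.53, adjusted p = 0.480) with overlapping groups. The value was 0.090 without DMSO replicate 3, 0.11 without CA replicate 3 and 0.32 without CA replicate 1. On 212558_at it read 5.01, 4.80 and 5.0 in DMSO and 5.44, 5.01 and 5.25 in CA, a change of 0.30 (0.03 to 0.56, adjusted p = 0.227), which was 0.19 without CA replicate 1. The spread between arrays of a group reached 0.21 (SD) in SPRY1, against 0.08 or less in the DUSP5 and DUSP6 probe sets. The intervals therefore leave room for a rise in SPRY1 close to that of DUSP5, which these arrays could not resolve.

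SPRED1, which recruits neurofibromin to the membrane and is mutated in Legius syndrome, read 8.09, 8.33 and 8.15 in DMSO and 8.09, 8.22 and 8.18 in CA on 226837_at. The groups were interleaved, and the change was -0.03 (-0.21 to 0.15, adjusted p = 0.892). The dimmer 235074_at and 244439_at gave -0.03 (-0.19 to 0.13) and -0.13 (-0.34 to 0.09).

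SPRED2, its close relative, had the lowest value of the 10 genes. On 212458_at it read 8.56, 8.56 and 8.69 in DMSO and 8.35, 8.40 and 8.45 in CA. All CA arrays lay below all DMSO arrays, 0.11 log2 units apart at their nearest, and the change was -0.20 (SE 0.06, -0.34 to -0.07, adjusted p = 0.112). It was not called. Among probe sets with a mean log2 of at least 5 or 6, where fewer are tested, its adjusted p was 0.0474 and 0.0262. With an intensity trend and robust moderation it was 0.0181. Adjusted p was 0.155 with a replicate block and 0.170 to 0.263 with any 1 array left out. Averaged over its probe sets, SPRED2 was at -0.053 (limma adjusted p = 0.650). Its other probe sets, 212466_at and 214026_s_at, lay below the lower quartile of the arrays (4.12) and gave 0.03 (-0.15 to 0.22) and 0.01 (-0.21 to 0.22).

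Together the 17 uncalled probe sets changed by -0.20 to 0.30, with adjusted p of 0.112 to 0.984, and the highest upper bound of their intervals was 0.565 (SPRY1 212558_at). Of the 21 member probe sets 8 lay below the arrays' median signal, where RMA signals hold much background and a change can be understated. The groups did not overlap in 7 of the 21 (33.3%): the 4 called, and those named above of SPRED2, SPRY2 and SPRY1. Over all probe sets this share was 25.1%.

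**Figure D2:**
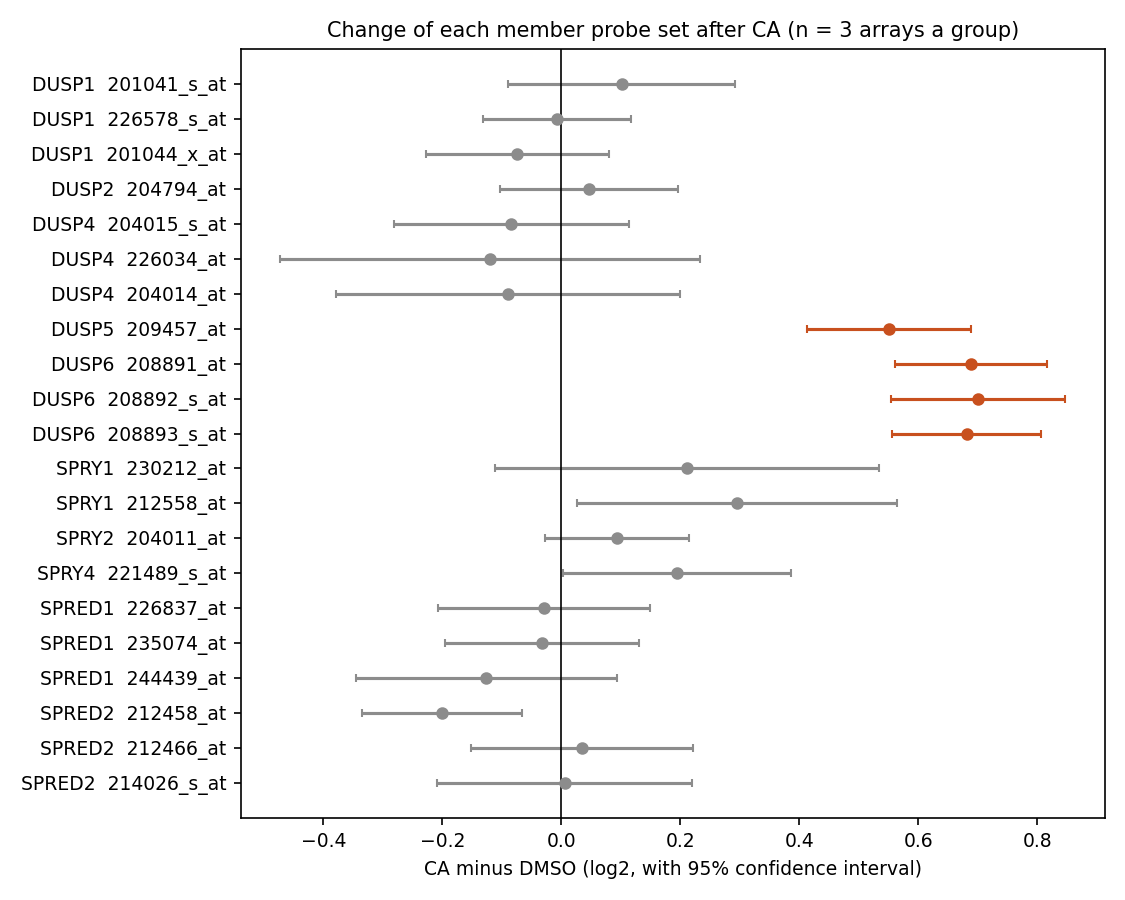
Change after CA (CA minus DMSO, log2) of each of the 21 member probe sets, with the 95% confidence interval of the limma fit on 3 arrays a group. Orange marks probe sets called higher and grey those not called. The 4 called probe sets lie between 0.55 and 0.70, and the other 17 between -0.20 and 0.30.

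**Figure D3:**
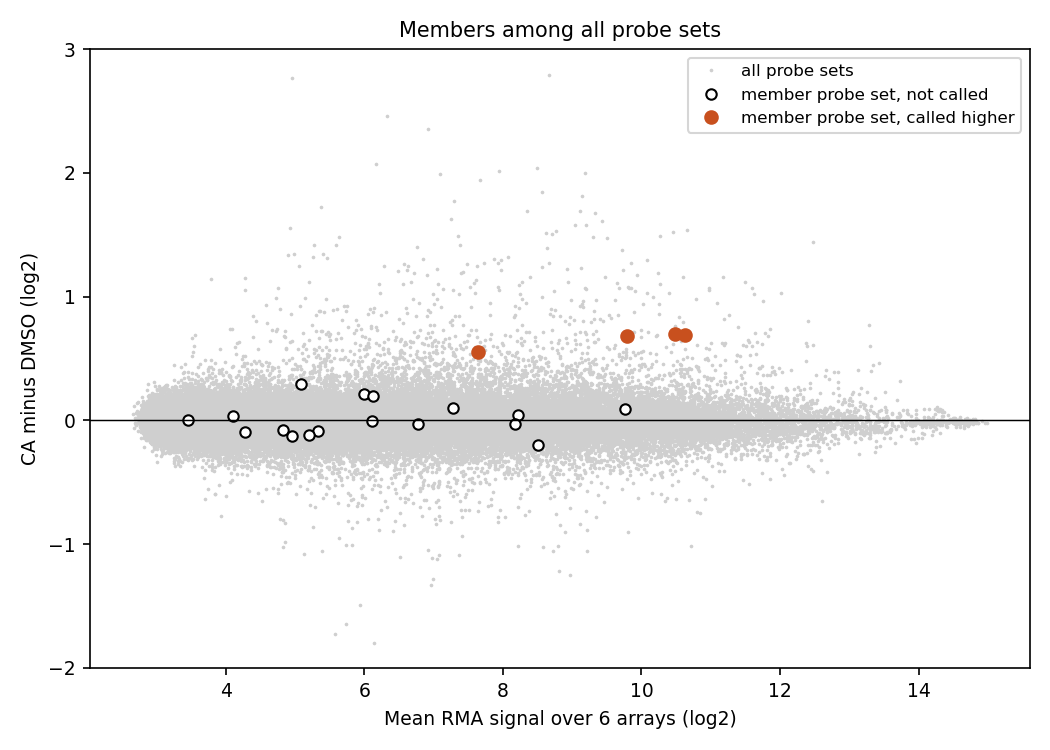
Change after CA (log2) against mean RMA signal over the 6 arrays for all 54613 probe sets (grey), with the member probe sets called higher (orange) and not called (open circles). The DUSP6 probe sets lie above most probe sets of like signal, and the other members lie within the grey band except DUSP5.

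The other genes of the pathway were taken from 3 lists, each gene by its probe set of highest mean. Of all 19775 genes taken this way, 4.31% were called higher and 2.55% lower. At an unadjusted p under 0.05, 2375 of them were higher and 1992 lower. Of 18 genes of the ERK cascade from receptor to kinase that were analysed here, 2 were called higher and 0 lower by limma (3 and 1 at an unadjusted p under 0.05). The median was 0.02. KSR1, a scaffold that holds RAF, MEK and ERK together, rose from 7.99 ± 0.15 to 8.63 ± 0.05 (SD, n = 3; change 0.64, adjusted p = 0.00714). That rests on 1 of its 4 probe sets, whose changes spanned -0.12 to 0.64, and averaged over the 4 KSR1 was at 0.14 (adjusted p = 0.0883). MAP2K1, which encodes the ERK kinase MEK1, rose from 10.26 ± 0.03 to 10.54 ± 0.05 (0.28, adjusted p = 0.0222). That call was lost with any 1 array left out (adjusted p of 0.0546 to 0.0889). FLT3 was at 0.03 (-0.07 to 0.13, adjusted p = 0.806) and MAPK3, which encodes ERK1, at -0.06 (-0.30 to 0.18, adjusted p = 0.823).

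Transcripts known to respond to ERK moved in both directions. Of 14 analysed here, 2 were called higher and 2 lower, with a median of -0.01. Over all genes the shares were 4.31% and 2.55%. IER3, an immediate early gene that modulates cell survival, read 7.78, 7.69 and 7.69 in DMSO and 8.66, 8.56 and 8.71 in CA (change 0.92, adjusted p = 3.54e-04). EGR3, a zinc finger factor, rose from 4.30 ± 0.15 to 5.04 ± 0.18 (0.73, adjusted p = 0.0144), below the arrays' median signal in both groups.

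EGR1, the best known early growth response factor, read 7.52, 7.40 and 7.38 in DMSO and 6.73, 6.75 and 6.71 in CA. It fell by 0.70 (adjusted p = 9.21e-04), close in size to the rise of DUSP6 but opposite in sign, on the brightest of its 3 probe sets. The other EGR1 probe sets gave -0.11 and -0.16, uncalled. FOS, a subunit of AP-1, read 6.91, 6.93 and 6.99 in DMSO and 6.49, 6.60 and 6.62 in CA (-0.38, adjusted p = 0.0117), and missed the threshold without DMSO replicate 3 (adjusted p = 0.0540). In each of these 4 genes the groups did not overlap. The same held for 10 of the 14 genes analysed, and for 31.8% of all 19775 genes.

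PHLDA1 is a case where the choice of probe set sets the answer, and it was picked out after its values were seen. Its brightest probe set was at -0.06 (adjusted p = 0.622), while 3 of its 6 probe sets were called higher, the largest at 0.74. When the probe sets of each gene were averaged, 5 of the 14 ERK-responsive genes were called higher and 2 lower, where 5.23% and 3.63% of all 19775 genes were. DUSP6 did not depend on this choice, being called on all 3 of its probe sets.

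Among 10 further phosphatases of MAP kinases and Sprouty or SPRED relatives, 1 was called higher and 1 lower (median 0.01). Over all genes the shares were 4.31% and 2.55%. DUSP7, the closest relative of DUSP6 and also directed at ERK, read 9.81, 9.76 and 9.72 in DMSO and 10.01, 9.99 and 10.06 in CA (0.26, adjusted p = 0.0315). PTPN7, a tyrosine phosphatase of blood cells that acts on ERK, read 9.69, 9.72 and 9.70 in DMSO and 9.43, 9.48 and 9.45 in CA (-0.25, adjusted p = 0.0257). Both calls were lost with any 1 array left out, with adjusted p of 0.0669 to 0.113 for DUSP7 and 0.0775 to 0.0932 for PTPN7. DUSP9, the third phosphatase of the DUSP6 subfamily, was at -0.15 (-0.41 to 0.11), SPRY3 at 0.08 (-0.06 to 0.23) and SPRED3 at -0.03 (-0.17 to 0.12).

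**Figure D4:**
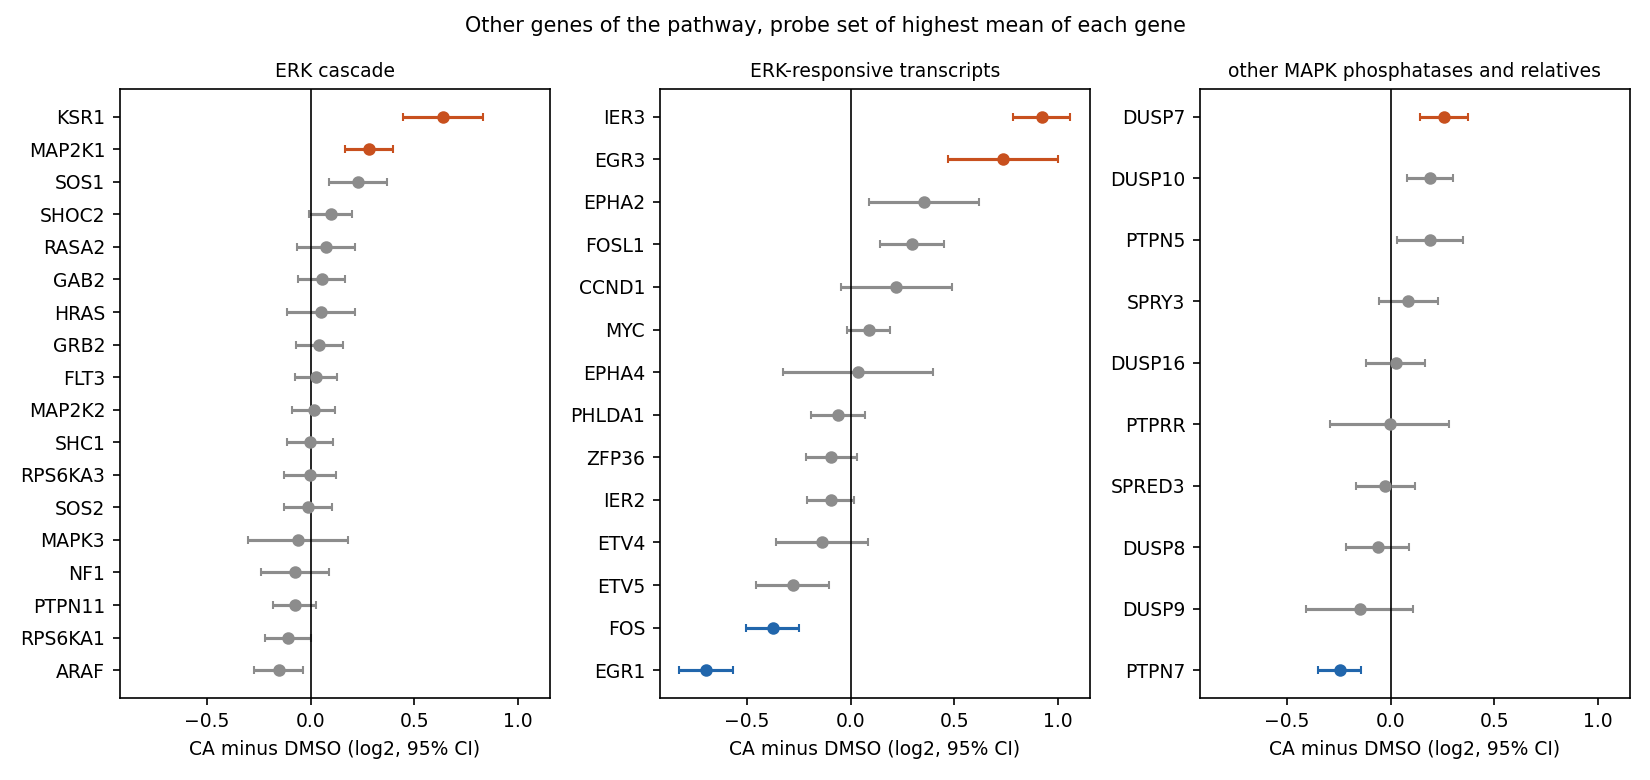
Change after CA (CA minus DMSO, log2) with 95% confidence interval (limma, 3 arrays a group) for the genes of the ERK cascade, ERK-responsive transcripts and other MAP kinase phosphatases and relatives, each by its probe set of highest mean. Orange marks genes called higher, blue genes called lower and grey those not called. IER3 and EGR3 lie furthest to the right at 0.92 and 0.73, and EGR1 furthest to the left at -0.70.

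The 6 arrays had medians of 5.59 to 5.62, and each array correlated better across probe sets with both others of its group than with any of the other group. FLT3 (11.69 ± 0.02 in DMSO, SD, n = 3), lysozyme (LYZ, 13.38 ± 0.10) and MEIS1 (9.70 ± 0.06), a gene driven by MLL fusions, were bright, while CD14 (4.36 ± 0.18) and SPI1 (5.51 ± 0.12) lay below the median. MEIS1 rose with CA (0.25, adjusted p = 0.0430), with both of its probe sets called. Of the 9 myeloid markers analysed, each by its probe set of highest mean, 2 fell with CA and 0 rose. The 2 were CSF1R (-0.39, adjusted p = 0.0241) and ITGAM (-0.45, adjusted p = 0.00779). Over all genes taken this way, 2.55% were called lower and 4.31% higher. FCGR1A, dim at 4.05 ± 0.12 in DMSO (SD, n = 3), was at -0.18 (limma adjusted p = 0.476). CSF3R was at -0.59 (adjusted p = 0.0837), with its other probe set called lower at -0.65, and CD14 at 0.35 (adjusted p = 0.212). MPO was at 0.06 (adjusted p = 0.628), with its other probe set called higher at 0.40. Among 10 markers of erythroid, T, B, epithelial and stromal cells 0 were called. Their mean signals ran from 3.52 to 7.37. RNA integrity, read as GAPDH's 3′ control signal less its 5′ one, came to 0.38 ± 0.02 under DMSO against 0.48 ± 0.05 under CA (SD, n = 3; 2-sided exact permutation p = 0.1, the smallest possible for 3 against 3). For ACTB the same reading was 2.27 ± 0.13 under DMSO and 2.38 ± 0.07 under CA (SD, n = 3, exact permutation p = 0.3). The part of these differences in the members' values was not tested.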

How the data were processed

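The values are log2 intensities per probe set, which the authors made and deposited. Per the submitters' processing notes they used RMA in the affy package. Neither version, nor the set of arrays put through RMA, is stated in the labels. RMA corrects background, quantile-normalizes and summarises probes, and it compresses large changes. Scanner files were not used here, so scale and centring rest on those notes.

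The platform annotation gave 41091 of 54613 probe sets (62 controls left out) 1 symbol and 1801 several, from which no gene was named, and 11721 are unnamed here. Of the first, 41037 (99.9%) matched a GRCh38.p14 gene table. All probe sets went into 1 limma fit (version 3.58.1, R 4.3.3; lmFit, then default eBayes; 2-sided, no covariates, no filter), tested on simulated data. Alternatives were other probe set choices, level filters, centrings, moderation, thresholds, a replicate block and each array left out. Upstream windows came from RefSeq.

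Named are all member probe sets and, from each pathway list, up to 4 called genes of largest change; FLT3, MAPK3, DUSP9, SPRY3, SPRED3 and PHLDA1 were picked after their values were seen. The members and lists were chosen with earlier results of these data known. Some listed genes were not analysed here. Arrays have no read depth, and precision is limited by their number.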

Additional observations from a re-analysis of the deposited data

How the results depend on the processing

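Of 21 member probe sets 4 were called higher and 0 lower, and under the alternatives run this changed in these cases. Leaving out _x_at and _s_at probe sets removed 2 of DUSP6, so 2 were called higher. SPRED2 made 1 member probe set and 1 member gene lower with level filters at 5 and 6 (mean log2), and with an intensity trend and robust moderation. In these 3 settings 2030 of 32602, 2548 of 24082 and 2849 of 54613 probe sets were called lower. For genes these were 936 of 13838, 1224 of 10997 and 1393 of 19775. Uncalled probe sets near 0 turned sign: DUSP1 226578_s_at was at 0.0023 with arrays centred on their medians, and SPRED2 214026_s_at at -0.0064 with arrays centred on the reference genes. Leaving out each array in turn gave ranges of -0.040 to 0.021 for DUSP1 226578_s_at, -0.21 to 0.028 for DUSP4 204014_at, -0.22 to 0.029 for DUSP4 226034_at, -0.080 to 0.043 for SPRED1 226837_at, -0.072 to 0.031 for SPRED1 235074_at, -0.0093 to 0.10 for SPRED2 212466_at and -0.075 to 0.084 for SPRED2 214026_s_at, with no call. Other uncalled member probe sets also moved by over 1.5 times without 1 array, with no change of sign, among them SPRY1 230212_at (0.090 to 0.32), DUSP1 201041_s_at (0.025 to 0.16) and DUSP2 (0.0020 to 0.074).

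Over all probe sets, 1639 were called higher and 1097 lower. These counts were 868 and 570 without _x_at and _s_at probe sets, 2473 and 2030 with the filter at 5, 2892 and 2548 at 6, and 3224 and 2849 with the trend. They were 673 and 295 at adjusted p under 0.01, lower calls were 1943 under 0.1, and any 1 array left out gave 830 to 902 and 396 to 432. Genes called higher were 853 and lower 504, against 1314 and 888 when only 1 probe set a gene was tested.

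In the ERK cascade, 1 gene was called higher in place of 2 with averaged probe sets and at 0.01. The same held with a replicate block and with any 1 array left out. With the trend 4 were higher and 1 lower, and with the level filter at 6, 1 of the 17 genes left was lower. Of the ERK-responsive genes, 5 were higher in place of 2 with averaged probe sets, 4 with the trend and 1 at 0.01, while 1 was lower in place of 2 without _x_at and _s_at probe sets and at 0.01, and 1 to 3 with an array left out. Of the other phosphatases and relatives, 2 were higher in place of 1 with 1 probe set a gene tested, with the trend and under 0.1. The same count was reached at both level filters, which left 7 and 6 of these genes. With the replicate block, at 0.01 and with any 1 array left out, 0 were called either way, and without _x_at and _s_at probe sets 0 were lower. Over all genes, higher and lower calls were 1816 and 1393 of 19775 with the trend, and 1035 and 718 with averaged probe sets. They were 1364 and 936 of 13838 at filter 5, 1642 and 1224 of 10997 at 6, and 523 and 327 of 17098 without _x_at and _s_at probe sets. Of 19775 genes they were 376 and 168 at 0.01, 1263 and 845 under 0.1, and 404 and 184 with the block. With 1 array left out they were 431 to 490 and 209 to 223.

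The replicate block gave 768 higher and 341 lower probe sets, and the 4 member probe sets stayed called, while MAP2K1, DUSP7 and PTPN7 missed the threshold (limma adjusted p of 0.0806, 0.113 and 0.0990). Arrays of the same number deviated from their group means with correlations of -0.01, 0.03 and -0.03. Those of unlike number ran from -0.10 to 0.10. No tie between arrays of the same number was seen, but whether the samples were handled in pairs is not settled by these values. The cause of these shifts was not tested. Low signal limits what could be seen for DUSP4 and for SPRED2 212466_at and 214026_s_at, and the spread between arrays for SPRY1.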
